A study of Mus musculus with 15 samples.

Results

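The sodium pump, the proton pumps and the small proteins that attach to them were taken from a gene-level table as every row whose symbol began with Atp1a, Atp1b, Atp4, Atp6v, Atp6ap or Atp12a, or with Fxyd followed by a digit. This symbol rule, which used no measured value, found 45 genes among the 25030 rows, of which 42 are described. They were 4 sodium pump beta genes, Atp1a4, 7 FXYD genes, 13 genes of the V1 sector and 9 of the V0 sector of the proton pump, 3 accessory proteins, 3 proton-potassium pump genes, 1 pseudogene (Atp6v0c-ps2) and 1 neighbour gene named after a subunit (Atp6v1fnb). RNA was sequenced from kidneys of wild-type male mice, strain labelled C56BL/6N, microdissected into cortex, outer medulla (OM) and inner medulla (IM), with 5 libraries per zone and 15 in all. All 3 groups share genotype, strain and sex, none was treated, and the labels used here give no age and leave unstated whether each library is a mouse of its own. The p-values thus reflect differences among these libraries, possibly technical ones.

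The sodium pump exports sodium and imports potassium at the basolateral membrane of tubule cells, and the sodium gradient it makes drives most tubular reabsorption. Its alpha subunit splits ATP and carries the ions, its beta subunit folds and escorts alpha to the membrane, and FXYD proteins adjust its ion affinities. The vacuolar proton pump (V-ATPase) has a cytosolic V1 sector that splits ATP and a membrane V0 sector through which protons pass. It acidifies lysosomes in every cell, and in acid-secreting intercalated cells of the collecting duct, built with isoforms of limited distribution, it pumps protons across the plasma membrane. Proton-potassium pumps exchange protons for potassium, best known in the stomach and also present in the collecting duct.

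Promoter windows of 4 proton pump genes are shown for the motif letters they hold, 1 of an isoform of limited distribution and 3 of subunits used in every cell. RefSeq promoter windows (GRCm38.p6, 250 bases before to 50 after the start, 300 bases) were matched for 29 of the 42 genes, as 33 windows. The letters TGTTTAC, on either strand, are a core that forkhead factors bind, and Foxi1 is the forkhead factor of intercalated cells. They lay in 3.65% of all 32851 windows searched and in 1 of the 33 member windows, a share no higher than that of all windows. It was the window of Atp6v1b1, at bases -98 to -92 from the start. The letters TCACGTGA, which read the same on both strands and hold the shorter E-box CACGTG within them, are a core bound by factors that regulate lysosomal genes. They lay in 0.974% of all windows and in those of Atp6v1a, Atp6v0d1 and Atp6v0e, at bases -132 to -125, -4 to 4 and 3 to 10. CACGTG alone lay in 7.15% of all windows and in those of 5 member genes, which were these 3, Atp1b3 and Atp6v0b. The motifs were picked after the sequences and values were seen, and a match is a description of letters. The windows follow, each 5′ to 3′ on the gene's strand, with the matched letters in capitals.
Atp6v1b1, chr6:83742767-83743066, plus strand: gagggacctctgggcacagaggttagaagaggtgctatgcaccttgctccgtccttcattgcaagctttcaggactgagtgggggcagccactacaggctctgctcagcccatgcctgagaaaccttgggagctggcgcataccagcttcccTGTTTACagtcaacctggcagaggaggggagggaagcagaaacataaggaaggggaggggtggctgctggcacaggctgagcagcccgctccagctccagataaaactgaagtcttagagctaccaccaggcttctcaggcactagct
Atp6v1a, chr16:44139210-44139509, minus strand: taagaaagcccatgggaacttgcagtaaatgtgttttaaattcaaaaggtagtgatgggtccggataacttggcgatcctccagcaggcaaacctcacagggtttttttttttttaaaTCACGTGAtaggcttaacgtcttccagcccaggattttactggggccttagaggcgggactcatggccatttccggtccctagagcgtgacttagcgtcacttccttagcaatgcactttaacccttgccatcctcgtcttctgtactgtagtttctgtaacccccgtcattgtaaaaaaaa
Atp6v0d1, chr8:105566015-105566314, minus strand: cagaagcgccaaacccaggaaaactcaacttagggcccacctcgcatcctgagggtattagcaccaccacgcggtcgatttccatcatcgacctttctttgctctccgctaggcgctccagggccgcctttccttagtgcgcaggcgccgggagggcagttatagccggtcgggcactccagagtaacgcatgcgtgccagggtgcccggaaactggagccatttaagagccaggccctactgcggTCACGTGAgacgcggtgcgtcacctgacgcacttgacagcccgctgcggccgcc
Atp6v0e, chr17:26676146-26676445, plus strand: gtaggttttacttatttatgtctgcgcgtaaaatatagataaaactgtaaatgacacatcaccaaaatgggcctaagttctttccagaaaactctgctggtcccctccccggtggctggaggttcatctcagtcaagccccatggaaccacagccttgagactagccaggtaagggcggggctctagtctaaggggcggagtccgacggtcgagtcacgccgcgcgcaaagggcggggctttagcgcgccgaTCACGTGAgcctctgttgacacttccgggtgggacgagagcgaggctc

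Levels are given in TPM, reads per gene length scaled so that each library sums to 1000000, so levels of different genes can be set side by side. Whole reads recovered from the steps between TPM values came to 16264486 to 25195553 per library, and 1 TPM stood for a median of 20.7 to 32.8 reads. Differences between zones are in log2(TPM + 1) with their standard error from limma, adjusted over the 15052 genes that reached 1 TPM in 5 or more libraries. On this scale the median of all tested genes was itself 0.11 higher in OM than in cortex, 0.51 higher in IM than in OM and 0.65 higher in IM than in cortex. Values are therefore also given after median-ratio scaling, which divides each library by its median ratio to the other libraries, so that they are relative to the typical gene. In bulk tissue, fewer cells of a type and less RNA per cell cannot be told apart.

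Some libraries stood apart from the others of their zone. Among the named members and subunit ratios, 7 of 84 sets of 5 libraries held a library far from the rest, where chance gives about 1 in 20, and OM library 1 was that library in 4 of the 7. For the named members and ratios, calls that changed without OM 1 are given with and without it. The labelled zones were followed with marker lists, and 10 proximal tubule markers summed to a mean of 8849 TPM (cortex), 6599 (OM) and 2437 (IM). For 6 thin limb markers the sums were 96.7, 509 and 6834, of which the gene Cryab alone made up 49.8, 313 and 5533. The list of 8 thick ascending limb markers did not separate IM from OM. Its mean sum was 4590 TPM for IM (range 2957 to 5695) and 4913 for OM, beside 1672 for cortex. The part of thick ascending limb cells in IM levels, such as those of Atp1b1 and Fxyd2, was not tested. In OM 1 the summed TPM of these 8 markers was 3043 (range of the other OM libraries, 4954 to 5846), and that of 7 urothelium markers was 49.5, against 11.6 to 19.3. For 11 of the 42 genes the GENCODE M21 annotation has another gene of the table overlapping them, among them Atp1b1 with Nme7 and Atp6v0a4 with Tmem213 and D630045J12Rik. The strand setting of the counting is not given in the sources used here, so reads of such pairs cannot be told apart.

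Of the 42 genes, 36 passed the filter on low values. Those that did not were Atp1a4, Atp1b4, Atp4b, Atp12a, Atp6v1e2 and Atp6ap1l. By mean level, 18 of the 36 were highest in cortex, 2 in OM and 16 in IM. From cortex to OM, limma called 10 members higher and 16 lower, where 28.3% of all tested genes were called higher and 6.3% lower, and libraries did not overlap for 20 members (28.7% of all tested genes). From OM to IM it called 17 higher and 9 lower (66.4% and 17.2% of all tested genes), with 20 members not overlapping (71.4%). From cortex to IM it called 16 higher and 18 lower (70.2% and 16%), with 32 not overlapping (77.5%). Without cortex 1, OM 1 and IM 4 these calls were 10 higher and 13 lower, 16 and 11, and 16 and 16. Without cortex 4, or without cortex 5, the lower calls from cortex to OM came to 10.

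After median-ratio scaling the balance moved to lower calls. From cortex to OM, 6 members were then higher and 21 lower, beside 16.2% and 17.8% of all tested genes. From OM to IM these were 10 and 24, beside 38.1% and 36.3%, and from cortex to IM 10 and 25, beside 40% and 38.6%. The median member difference from cortex to IM was -0.11 on the TPM scale and -0.81 after scaling, where all tested genes had medians of 0.65 and 0.03. The members called higher after scaling from cortex to IM were 6 FXYD genes, Atp1b2, Atp1b3, Atp6v0a1 and Atp6v1g2.

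**Figure D1:**
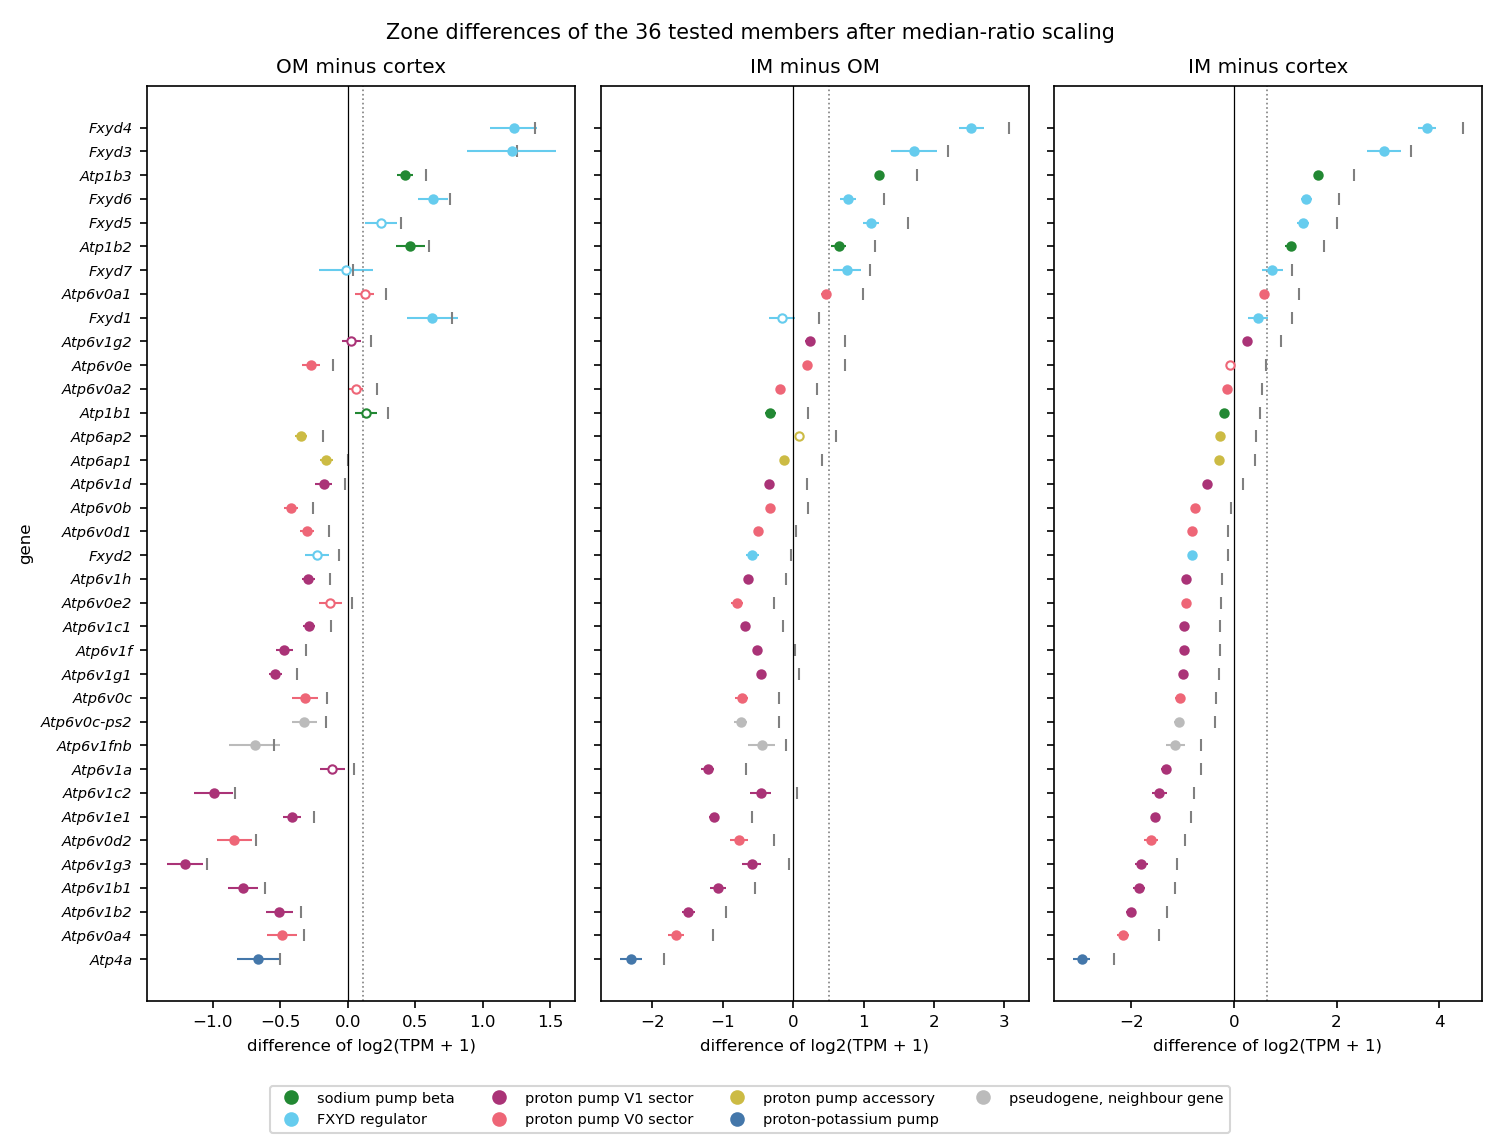
Log2 differences between zones of the members that passed the filter, after median-ratio scaling, with bars for the standard error of each difference. Filled points were called by limma, open points were not, grey ticks give the difference on the TPM scale, and the dotted line marks the TPM-scale median of all tested genes. From cortex to IM, 25 points lie to the called lower side and 10 to the called higher side.

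Beta subunits of the sodium pump rose toward the inner medulla, and beta 3 did so by more than beta 1. All 3 tested beta genes were called higher at each step on the TPM scale. Of all tested genes, 28.3% were called higher on that scale from cortex to OM and 66.4% from OM to IM. The shares after scaling were 16.2% and 38.1%, and 40% from cortex to IM. After scaling, Atp1b2 and Atp1b3 were still called higher in each of the 3 comparisons, while Atp1b1 was not called from cortex to OM and was called lower from OM to IM and from cortex to IM.

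Atp1b1, the main beta subunit of the kidney, ranked 46th among all genes by mean TPM in cortex, 25th in OM and 14th in IM. Its TPM was 1881, 1985, 1834, 1873 and 1942 in cortex libraries 1 to 5, 2013, 2591, 2398, 2307 and 2400 in OM, and 3016, 2558, 2900, 2839 and 2294 in IM. Every OM and IM library lay above every cortex library, and OM and IM overlapped. The difference from cortex to IM was 0.51 ± 0.08 (SE) on the TPM scale (limma, adjusted p = 1.51e-05) and -0.19 ± 0.08 after scaling (adjusted p = 0.0379), so it turned with the scale. From OM to IM it was 0.21 ± 0.08 (adjusted p = 0.019), and this call was lost without OM 1 (adjusted p = 0.0505) or without IM 1 (adjusted p = 0.051).

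Atp1b3, the widely expressed beta 3 subunit, had the largest rise among the beta genes. Its TPM was 70.0, 59.8, 68.5, 60.8 and 62.7 in cortex, 99.8, 94.3, 96.0, 90.8 and 103 in OM, and 293, 367, 335, 344 and 310 in IM. The 3 zones did not overlap. IM exceeded cortex 5.12-fold by mean, with a log2 difference of 2.34 ± 0.07 on the TPM scale (limma, adjusted p = 5.97e-14) and 1.64 ± 0.06 after scaling. Atp1b2, the beta 2 subunit known from glia, rose from 7.28 ± 0.763 TPM (SD, n = 5) in cortex to 11.7 ± 1.94 in OM and 27.2 ± 3.47 in IM, also without overlap between zones. Atp1b4, a muscle protein that lost its pump role in mammals, had at most 4 reads in a library, and Atp1a4, a subunit of sperm, had 0 to 3.

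**Figure D2:**
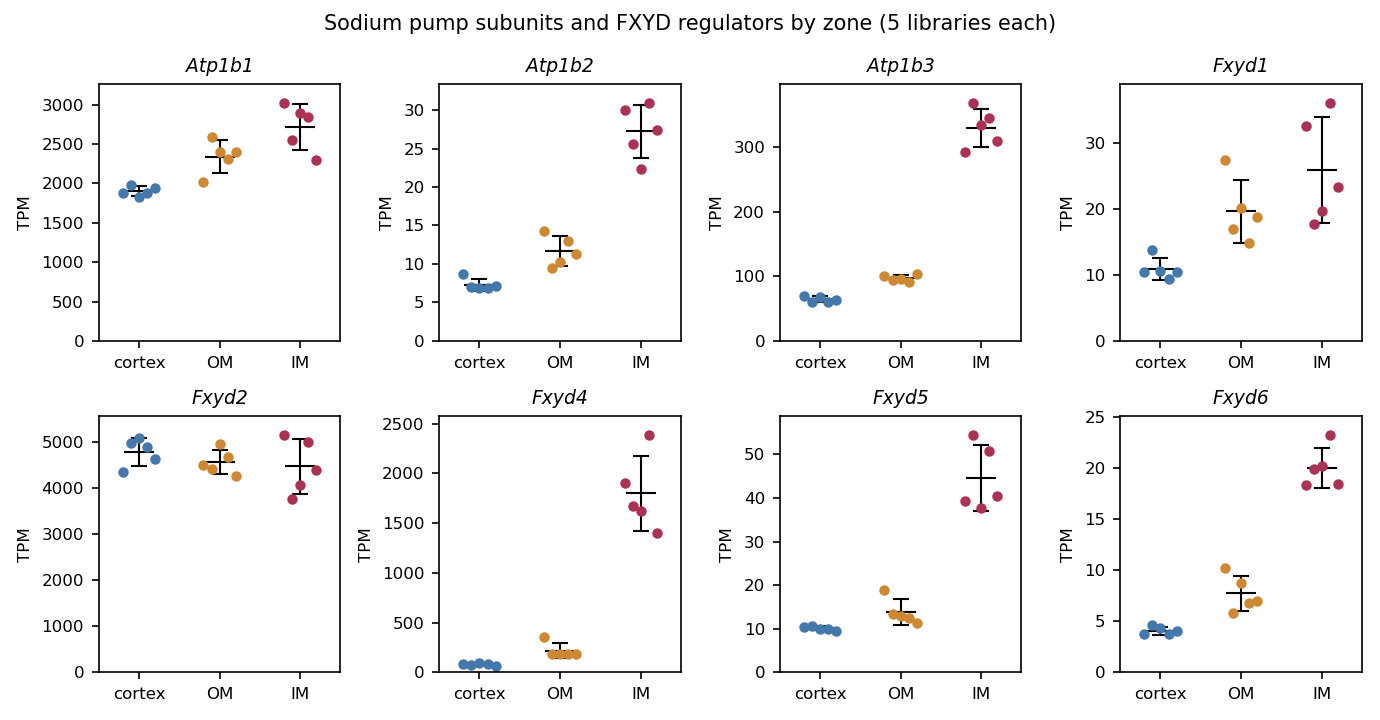
TPM of sodium pump and FXYD genes in each library on linear axes from 0, with 1 point per library and bars for the mean ± SD of the 5 libraries of a zone. Fxyd2 overlaps between zones, while Atp1b3 and Fxyd4 rise in steps from cortex to OM to IM.

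FXYD genes divided into an abundant member with like levels in the 3 zones and a set that rose toward the papilla. Of the 7, limma called 5 higher and 0 lower from cortex to OM, 5 and 0 from OM to IM, and 6 and 0 from cortex to IM, beside 28.3%, 66.4% and 70.2% of all tested genes called higher. After scaling the calls were 4 and 0, 5 and 1, and 6 and 1, beside 16.2%, 38.1% and 40% called higher, with Fxyd2 as the gene called lower. Limma-voom on the recovered reads also called 1 lower from OM to IM and from cortex to IM, and at an unadjusted p under 0.05 limma found 0 lower.

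Fxyd2, the gamma subunit that lowers the pump's sodium affinity, was the most abundant member, ranking 10th in cortex and 6th in OM and in IM. Its TPM was 4357, 4978, 5103, 4889 and 4636 in cortex, 4514, 4426, 4967, 4679 and 4271 in OM, and 5159, 3769, 4071, 4997 and 4390 in IM. The zones overlapped, and the difference from cortex to IM was -0.11 ± 0.08 (limma, adjusted p = 0.242) on the TPM scale and -0.81 ± 0.09 after scaling (adjusted p = 5.07e-07).

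Fxyd4, also called CHIF, a collecting duct protein induced by aldosterone that raises the pump's sodium affinity, had the largest log2(TPM + 1) difference from cortex to IM of the tested members. The cortex libraries held 83.6, 76.4, 90.3, 81.1 and 68.9 TPM, the OM libraries 361, 182, 186, 186 and 181, and the IM libraries 1904, 1676, 1625, 2386 and 1399. No zone overlapped another, OM 1 stood above all other OM libraries, and Fxyd4 moved from rank 1939 in cortex to rank 31 in IM. The mean in IM was 22.5-fold that in cortex, a log2 difference of 4.45 ± 0.18 (limma, adjusted p = 7.97e-12) on the TPM scale and 3.75 ± 0.18 after scaling. From cortex to OM the difference was 1.39 ± 0.18 (adjusted p = 5e-05) and 1.19 without OM 1.

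Beside these values, the summed TPM of 8 principal cell markers was 546 on average in cortex, 813 in OM and 9018 in IM. It ranged over 444 to 589.7, 699 to 914 and 7023 to 11078 TPM in these zones, and none of these genes was at 0 throughout a zone. In IM both Fxyd4 and this sum were highest in library 4 and lowest in library 5, but library 1, the next highest for Fxyd4, was the next lowest for the sum, at 7142 TPM. In OM Fxyd4 was highest in library 1 and the sum in library 3. The epithelial sodium channel genes among these markers went the other way, with Scnn1b at 50.1 TPM in cortex and 32.5 in IM and Scnn1g at 36.6 and 22.3. The part of principal cell number in the Fxyd4 difference was not tested.

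The lower FXYD genes also rose. Fxyd3, first found in mammary tumours, went from 0.528 to 0.941 TPM in the cortex libraries to 12.5 to 23.8 in the IM libraries, with 10.4 in OM 1 and 1.61 to 3.56 in the other OM libraries. IM exceeded cortex 24.9-fold by mean, and the log2 difference from cortex to IM was 3.45 ± 0.32 (limma, adjusted p = 8.73e-08). Urothelium marker sums moved the same way, from 1.55 to 7.67 TPM in cortex to 188 to 308 in IM, and their part in Fxyd3 was not tested. Fxyd5 (dysadherin), which also weakens cell adhesion, rose from 10.1 ± 0.464 TPM in cortex to 44.6 ± 7.54 in IM, a difference of 2.02 ± 0.12 (adjusted p = 1.99e-10). Fxyd6 rose from 4.1 ± 0.398 to 20.1 ± 1.98 TPM, and OM lay between at 7.75 ± 1.75. Fxyd1 (phospholemman), known from heart and muscle, was at 10.9 ± 1.66, 19.6 ± 4.79 and 25.8 ± 7.99 TPM. Its step from OM to IM was not called (0.36 ± 0.19, limma, adjusted p = 0.0916), nor after scaling (-0.16 ± 0.19, adjusted p = 0.465). On the TPM scale it was called without OM 1 (0.48, adjusted p = 0.0246) or without IM 2 (0.48, adjusted p = 0.0282). Fxyd7, known from brain, reached 2.43 ± 0.992 TPM in IM and 0.556 ± 0.314 in cortex, where 1 library had 0.

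Within a library a ratio of subunits does not depend on the total that TPM is divided by. Of 10 ratios computed 8 are given, each between 3 pairs of zones, and these 24 comparisons were tested by exact two-sided permutation of 5 against 5 libraries with Benjamini-Hochberg adjustment over all 30 computed. Of the 24, 19 had an adjusted p under 0.05. The smallest p this design allows is 0.00794, or 0.0149 after adjustment. Beta 3 relative to beta 1 went from 0.0339 ± 0.00324 to 0.0416 ± 0.00499 and 0.122 ± 0.0181, and the IM value differed from both other zones (exact permutation, adjusted p = 0.0149 for each). Fxyd4 relative to Fxyd2 rose from 0.0167 ± 0.00176 in cortex to 0.402 ± 0.0623 in IM, with each step at an adjusted p of 0.0149 by exact permutation.

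The V1 sector of the proton pump fell from cortex to the inner medulla. The summed level of its 13 genes was 2544 ± 65.9 TPM (cortex), 2103 ± 69.6 (OM) and 1768 ± 46.5 (IM). Of the 12 tested, limma called 0 higher and 9 lower from cortex to OM, and 3 and 6 from OM to IM. From cortex to IM it called 2 and 10. Of all tested genes 28.3% and 6.3%, 66.4% and 17.2%, and 70.2% and 16% were called higher and lower in these comparisons. After scaling the V1 calls were 0 and 10, 1 and 11, and 1 and 11. The shares of all tested genes were then 16.2% and 17.8%, 38.1% and 36.3%, and 40% and 38.6%. Although 0 V1 genes were called higher from cortex to OM, 1 had an unadjusted p under 0.05 in that direction, and limma-voom on the recovered reads called 0. The 2 called higher in IM than in cortex on the TPM scale were Atp6v1d, of the central stalk, and Atp6v1g2, a neuronal isoform of the outer stalk.

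Atp6v1b1 encodes the B1 subunit of intercalated cells, whose loss in humans causes distal renal tubular acidosis with deafness. It is the gene whose promoter window holds TGTTTAC. Its TPM was 130, 165, 141, 157 and 158 in cortex, 93.4, 105, 101, 104 and 85.4 in OM, and 85.6, 55.3, 57.7, 78.8 and 62.2 in IM. Cortex lay above both medullary zones in every library, and within IM libraries 1 and 4 stood above the other 3. The difference from cortex to IM was -1.15 ± 0.11 (limma, adjusted p = 7.47e-08) on the TPM scale and -1.85 ± 0.11 after scaling. Mean levels fell from 150 ± 14.4 TPM to 97.8 ± 8.29 and 67.9 ± 13.5.

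Atp6v1b2, the B2 subunit used in every cell and abundant in the proximal tubule, fell as well. Its TPM was 298, 307, 311, 330 and 348 in cortex, 207, 268, 257, 260 and 264 in OM, and 123, 127, 146, 109 and 144 in IM. No zone overlapped another. The log2 difference from cortex to IM was -1.30 ± 0.09 (limma, adjusted p = 7.72e-10) and -1.99 ± 0.10 after scaling. Its partner in the catalytic head, Atp6v1a, was at 253 ± 9.65 TPM (cortex), 262 ± 22 (OM) and 164 ± 19.8 (IM), with a call from OM to IM (-0.68 ± 0.08, adjusted p = 9.99e-07) and none from cortex to OM (0.05 ± 0.08, adjusted p = 0.689).

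Other isoforms of limited distribution were highest in cortex. Atp6v1g3, the kidney isoform of the G subunit, had TPM of 78.4, 102, 91.5, 91.8 and 95.0 in cortex, 52.3, 49.1, 44.1, 44.3 and 31.7 in OM, and 43.2, 35.6, 41.5, 57.9 and 34.6 in IM. Cortex lay above both other zones, which overlapped. The step from cortex to OM was -1.05 ± 0.14 (limma, adjusted p = 4.79e-05), and that from OM to IM was -0.06 ± 0.14 (adjusted p = 0.687) on the TPM scale and -0.59 ± 0.13 after scaling (adjusted p = 0.000943). Atp6v1c2, the C2 subunit of lung and kidney, followed at 49.2 ± 4.62, 27.5 ± 5.14 and 28.8 ± 6.71 TPM. Its widely expressed counterpart Atp6v1c1 was at 95.8 ± 3.7, 87.6 ± 4.05 and 79.1 ± 2.59 TPM.

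The remaining V1 subunits fell by less than 1 log2 unit on the TPM scale or rose. Atp6v1e1 of the outer stalk went from 448 ± 20.7 TPM in cortex to 376 ± 13.3 and 250 ± 20.5. Its difference from cortex to IM was -0.84 ± 0.06 (limma, adjusted p = 9.55e-10) and -1.54 ± 0.07 after scaling. Atp6v1f of the central stalk, Atp6v1g1 of the outer stalk and the regulatory subunit Atp6v1h were each called lower from cortex to IM. Their log2 differences were -0.28 ± 0.06, -0.29 ± 0.04 and -0.23 ± 0.05, and after scaling -0.98 ± 0.06, -0.99 ± 0.05 and -0.93 ± 0.05. Atp6v1d was at 183 ± 8.49, 181 ± 12.2 and 208 ± 12.2 TPM, called higher in IM than in cortex on the TPM scale (0.18 ± 0.06, adjusted p = 0.00874) and lower after scaling (-0.52 ± 0.06, adjusted p = 1.53e-06). Atp6v1g2 rose on both scales, from 8.77 ± 0.644 to 17.4 ± 1.37 TPM, by 0.91 ± 0.07 and by 0.26 ± 0.07 after scaling. Atp6v1e2, the testis isoform, had 0 to 4 reads.

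**Figure D3:**
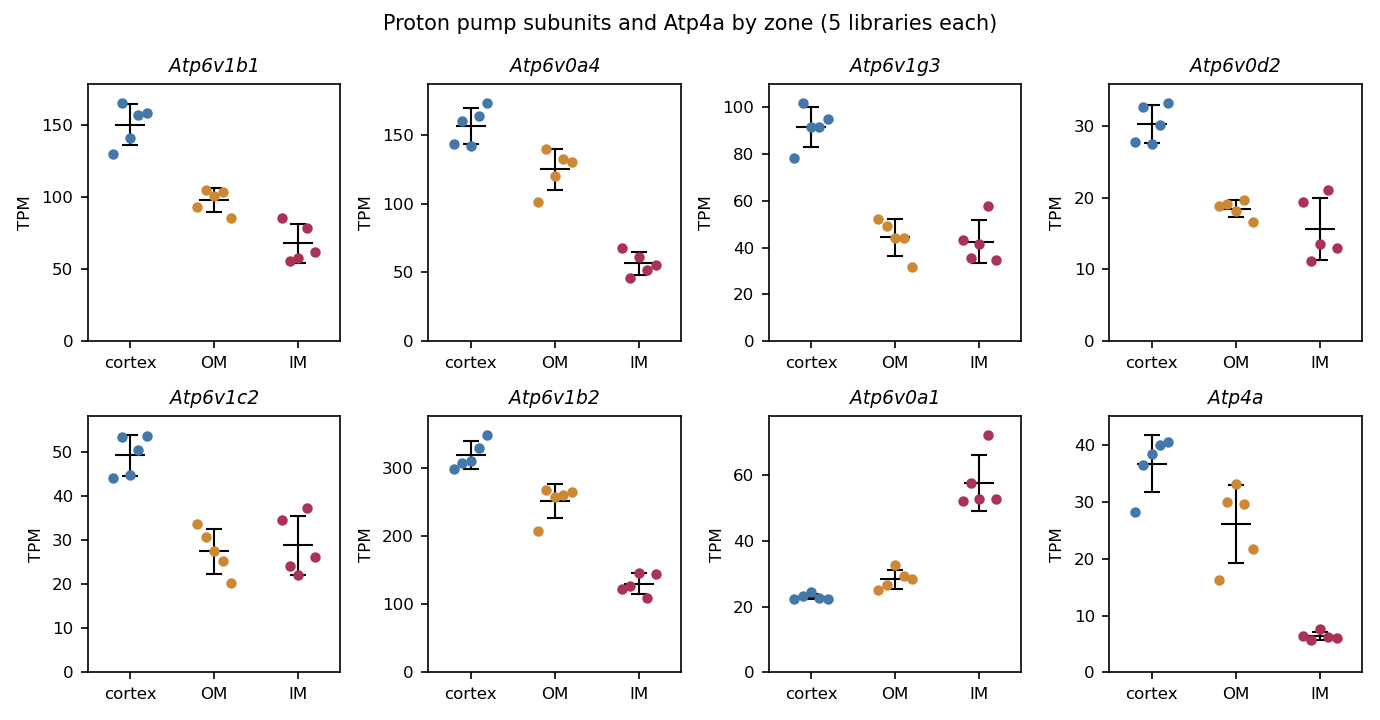
TPM of proton pump subunits and Atp4a in each library on linear axes from 0, with 1 point per library and bars for the mean ± SD of the 5 libraries of a zone. Atp6v1b2 and Atp6v0a4 step down from cortex to OM to IM with no overlap, Atp6v1b1 lies highest in cortex, and Atp6v0a1 steps up.

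Levels of the V0 sector were lowest in OM as a sum of TPM, while after scaling the median V0 difference from OM to IM was -0.50. Its 9 genes summed to 1517 ± 47.2 TPM (cortex), 1343 ± 34.9 (OM) and 1529 ± 46.4 (IM). Limma called 2 higher and 4 lower from cortex to OM, 4 and 2 from OM to IM, and 3 and 5 from cortex to IM. Of all tested genes 28.3% and 6.3%, 66.4% and 17.2%, and 70.2% and 16% were called higher and lower in these comparisons. After scaling the V0 calls were 0 and 6, 2 and 7, and 1 and 7. The shares of all tested genes were then 16.2% and 17.8%, 38.1% and 36.3%, and 40% and 38.6%. The genes within the V0 sector went in opposite directions.

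Atp6v0a4 encodes the a4 isoform of the largest membrane subunit, which in humans is the other gene of distal renal tubular acidosis. Its TPM was 144, 160, 143, 164 and 173 in cortex, 101, 140, 121, 133 and 131 in OM, and 68.1, 45.7, 61.6, 51.9 and 55.4 in IM. Each zone lay below the one outside it, without overlap. The difference from cortex to IM was -1.46 ± 0.10 (limma, adjusted p = 1.68e-09) and -2.16 ± 0.11 after scaling. From cortex to OM it was -0.33 ± 0.10 (adjusted p = 0.0241), a call that was lost on the TPM scale without cortex 4, cortex 5, OM 1 or OM 3, with adjusted p of 0.0532, 0.063, 0.0573 and 0.0501.

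Atp6v0a1, the a1 isoform known from neurons and present widely, went the other way. Its TPM was 22.3, 23.3, 24.4, 22.8 and 22.4 in cortex, 24.9, 26.5, 32.6, 29.2 and 28.4 in OM, and 52.0, 57.6, 52.8, 72.2 and 52.7 in IM. The zones did not overlap, and IM 4 was the highest library. The difference from cortex to IM was 1.27 ± 0.09 (limma, adjusted p = 9.41e-10) and 0.59 ± 0.07 after scaling. Atp6v0a2, the a2 isoform of the Golgi, was at 30.6 ± 2.12, 35.7 ± 1.76 and 45.4 ± 2.97 TPM, called higher in IM than in cortex on the TPM scale (0.56 ± 0.06) and lower after scaling (-0.13 ± 0.05, adjusted p = 0.0412).

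Atp6v0d2, the d2 isoform of kidney and bone, fell from 30.3 ± 2.66 TPM in cortex to 18.5 ± 1.14 in OM and 15.6 ± 4.33 in IM. Its cortex libraries, at 27.5 to 33.2 TPM, lay above those of OM, at 16.7 to 19.7, and of IM, at 11.2 to 21. The difference from cortex to OM was -0.68 ± 0.13 (limma, adjusted p = 0.00108), and from OM to IM it was -0.27 ± 0.13 (adjusted p = 0.0763), which was called without IM 1 (-0.35, adjusted p = 0.0226) or without IM 4 (-0.38, adjusted p = 0.00751), and after scaling with all libraries (-0.77 ± 0.13, adjusted p = 5.66e-05). Atp6v0d1, its widely expressed counterpart, changed by -0.11 ± 0.05 from cortex to IM (adjusted p = 0.0475), between 135 ± 6.16 and 125 ± 7.23 TPM. After scaling this difference of Atp6v0d1 was -0.81 ± 0.05 (limma, adjusted p = 9.27e-10).

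Small membrane subunits also differed. Atp6v0e rose from 320 ± 9.07 TPM in cortex to 497 ± 40.7 in IM, by 0.63 ± 0.06 on the TPM scale (limma, adjusted p = 6.69e-08), and its difference after scaling was -0.07 ± 0.07 (adjusted p = 0.335). Atp6v0e2 fell from 61.9 ± 3.82 to 52.5 ± 7.56 TPM, by 0.24 ± 0.08 (adjusted p = 0.00931), and its scaled difference was -0.93 ± 0.08. Atp6v0b, of the proton-carrying ring, was at 477 ± 16.8, 399 ± 21.3 and 460 ± 17.4 TPM. From cortex to IM, Atp6v0b differed by -0.05 ± 0.05 (limma, adjusted p = 0.307) and by -0.76 ± 0.05 after scaling (adjusted p = 2.03e-09). Atp6v0c, the main ring subunit, was listed at 283 ± 29.2, 255 ± 36.1 and 221 ± 14.6 TPM. Recovered reads of the pseudogene Atp6v0c-ps2 were 0.975 to 0.992 of those of Atp6v0c in all 15 libraries, so the values of both rows are uncertain and the reads of the pair cannot be told apart. Atp6v1fnb, which overlaps Kcp and is not a pump subunit, was at 3.84 ± 0.936, 2.4 ± 1.17 and 2.07 ± 0.408 TPM.

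Of the 6 isoform ratios of the proton pump, that of the a subunit differed most in both comparisons with IM, by -2.16 on the log2 scale from OM and -2.78 from cortex. From cortex to OM it changed by -0.62, less than G3 to G1 (-0.69) and C2 to C1 (-0.73). The ratio of Atp6v0a4 to Atp6v0a1 was 6.45, 6.88, 5.83, 7.21 and 7.72 in the cortex libraries, 4.06, 5.3, 3.7, 4.54 and 4.62 in OM, and 1.31, 0.794, 1.17, 0.719 and 1.05 in IM. No zone overlapped another, and all 3 comparisons had the smallest adjusted p this design allows (exact permutation, adjusted p = 0.0149). Isoform d2 relative to d1 was 0.225 ± 0.0163 in cortex, 0.152 ± 0.00942 in OM and 0.127 ± 0.0397 in IM, and G3 relative to G1 was 0.273 ± 0.0234, 0.171 ± 0.0272 and 0.155 ± 0.0363. Both were higher in cortex than in either medullary zone (exact permutation, adjusted p = 0.0149), and OM and IM did not differ beyond their spread (adjusted p = 0.21 and 0.45). C2 relative to C1 was 0.515 ± 0.0584, 0.316 ± 0.0718 and 0.366 ± 0.0912, with the cortex apart from OM (exact permutation, adjusted p = 0.0149) and from IM (adjusted p = 0.0454, a call lost when single libraries were left out).

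B1 relative to B2 did not follow these. The ratio was 0.436, 0.538, 0.455, 0.477 and 0.454 in cortex, 0.452, 0.392, 0.392, 0.399 and 0.323 in OM, and 0.697, 0.434, 0.396, 0.723 and 0.431 in IM. IM libraries 1 and 4 stood above every other library, and the other 3 lay among those of cortex and OM. The ratio was lower in OM than in cortex (exact permutation, adjusted p = 0.0265). With all libraries the IM ratio did not differ beyond its spread from that of cortex (adjusted p = 0.485) or of OM (adjusted p = 0.109). Without OM 1 it was called higher in IM than in OM, by 0.47 on the log2 scale (exact permutation, adjusted p = 0.0433). The step from cortex to OM had adjusted p of 0.0501 when any of 6 single libraries was left out. Atp6v0e2 relative to Atp6v0e was 0.193 ± 0.0109, 0.213 ± 0.00764 and 0.105 ± 0.00977, lower in IM than in both other zones (exact permutation, adjusted p = 0.0149).

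**Figure D4:**
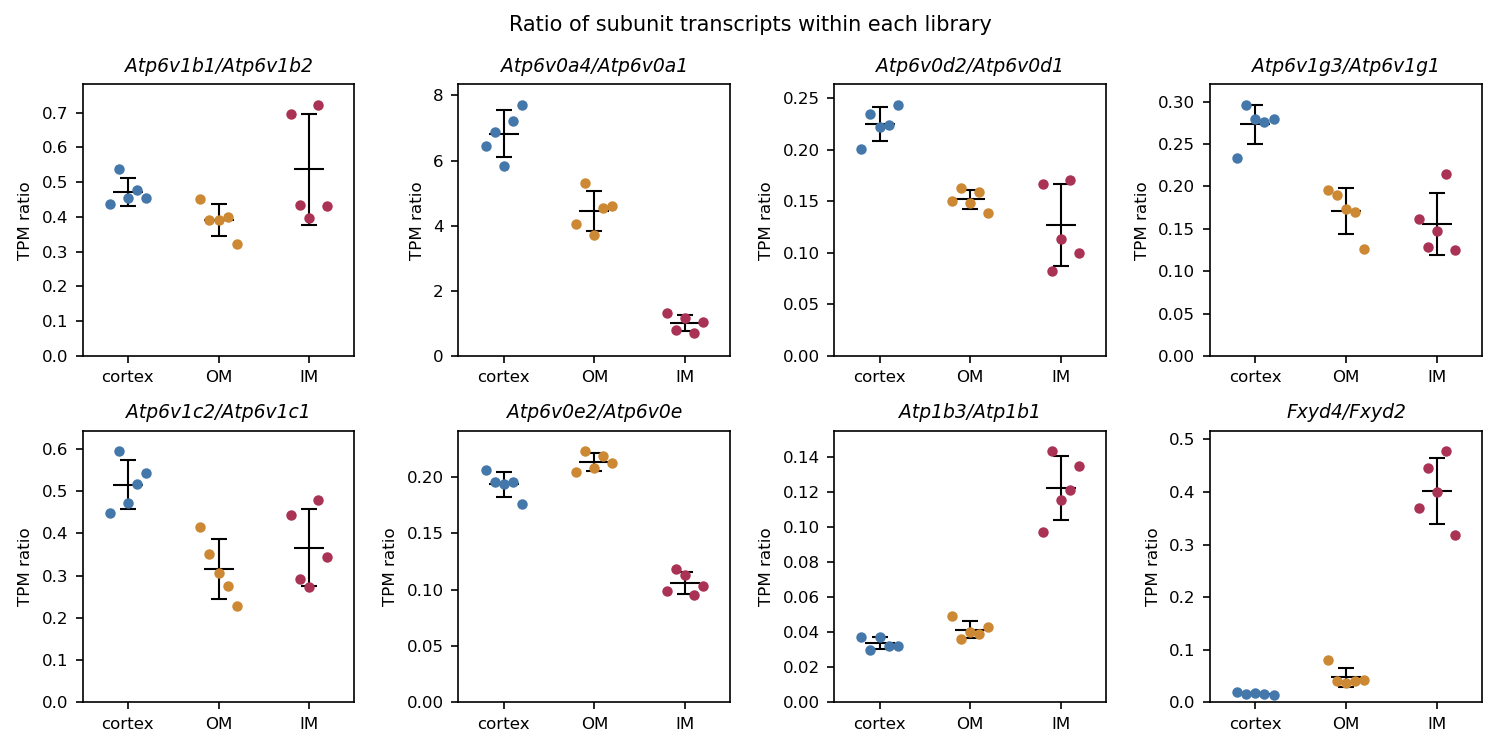
Ratios of subunit isoforms within each library, on linear axes from 0, with 1 point per library and bars for the mean ± SD of the 5 libraries of a zone. Atp6v0a4 over Atp6v0a1 steps down from 6.82 in cortex to 1.01 in IM, while Fxyd4 over Fxyd2 steps up from 0.0167 to 0.402.

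Intercalated cell markers stand beside these values because the isoforms of limited distribution are used there. The summed TPM of 10 markers was 519 on average in cortex, 361 in OM and 447 in IM, over ranges of 462 to 569.9, 299 to 385.7 and 369 to 613, and none of the 10 was at 0 throughout a zone. In IM it was 506 in library 1 and 613 in library 4, and 369 to 373.3 in the other 3, and libraries 1 and 4 were also those with the highest B1 to B2 ratios. From cortex to IM limma called 3 of the 10 higher and 6 lower, where 70.2% of all tested genes were called higher and 16% lower. After scaling the calls were 3 and 7, beside 40% and 38.6% of all tested genes. The 3 higher were genes of type A cells, which secrete acid, namely Slc4a1 (their basolateral bicarbonate exchanger, 15.8 to 61.3 TPM by mean), Aqp6 (29.3 to 190) and Dmrt2 (2.56 to 13.3). Slc26a4 (pendrin, the bicarbonate exchanger of type B cells) fell from 85.8 to 3.01 TPM and Slc4a9 from 99.95 to 12.2. The other 4 called lower on the TPM scale included the ammonia transporters Rhcg (138 to 91.2 TPM) and Rhbg (76.2 to 47.4), which are not limited to type B cells. They also included Hmx2 (16.1 to 0.743) and Insrr (29.7 to 4.31). Foxi1 was at 25.3 ± 2.78, 16.7 ± 2.67 and 23.3 ± 3.93 TPM. Only after scaling was Foxi1 called lower from cortex to IM (-0.80 ± 0.12, limma, adjusted p = 1.36e-05). The part of these cells in the subunit levels was not tested.

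Accessory proteins of the proton pump went up on the TPM scale. Atp6ap1 (Ac45), which guides the pump through the secretory pathway, had TPM of 180, 177, 184, 184 and 182 in cortex, 174, 187, 194, 189 and 166 in OM, and 243, 243, 249, 244 and 234 in IM. All IM libraries lay above the others, while OM straddled cortex. Its difference from cortex to IM was 0.42 ± 0.05 (limma, adjusted p = 3.91e-07) on the TPM scale and -0.28 ± 0.05 after scaling (adjusted p = 6.29e-05). Atp6ap2, the prorenin receptor, was at 96.4 ± 4.63, 84.6 ± 4.2 and 130 ± 4.23 TPM, with 0.43 ± 0.05 and -0.27 ± 0.05 on the 2 scales for cortex to IM. Both therefore rose in TPM and fell relative to the typical gene. Atp6ap1l had 0 to 2 reads.

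Atp4a, the catalytic subunit of the gastric proton-potassium pump, was the member with the largest fall. Its TPM was 28.2, 36.4, 38.4, 40.1 and 40.6 in cortex, 16.3, 29.95, 33.1, 29.6 and 21.8 in OM, and 6.5, 5.76, 7.57, 6.3 and 6.08 in IM. Cortex and OM overlapped, and IM lay below both. Cortex exceeded IM 5.7-fold by mean, with a log2 difference of -2.34 ± 0.16 (limma, adjusted p = 1.11e-09) and -2.97 ± 0.16 after scaling. The step from cortex to OM, -0.51 ± 0.16 (adjusted p = 0.0218), lost its call without cortex 4, cortex 5 or OM 5, with adjusted p of 0.051, 0.053 and 0.0571. Atp4b, the beta subunit that the gastric pump needs in the stomach, had 0 to 5 reads per library and was at 0 in all OM libraries. Atp12a, the colonic pump found in collecting ducts of potassium-depleted animals, had 2 to 24 reads, or 0.276 ± 0.168 TPM (cortex), 0.239 ± 0.109 (OM) and 0.0945 ± 0.0428 (IM).

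Genes that regulate, assemble or resemble these pumps were followed as 4 lists, and their counts from cortex to IM stand beside 70.2% of all tested genes called higher and 16% lower (after scaling 40% and 38.6%). Of 9 regulators of the sodium pump 6 were tested, and from cortex to IM 3 were called higher and 1 lower (after scaling 2 and 3). Sgk1, the kinase induced by aldosterone and by hypertonicity that keeps sodium transporters at the membrane, rose from 14.8 ± 3.24 TPM in cortex to 344 ± 82.3 in IM, by 4.43 ± 0.18 (limma, adjusted p = 5.75e-12). Hsd11b2, which protects the aldosterone receptor from glucocorticoids, was at 188 ± 14 TPM in cortex and 203 ± 43.1 in IM (0.09 ± 0.11, adjusted p = 0.478) and was called lower after scaling (-0.61 ± 0.11, adjusted p = 7.82e-05). Nkain1, a protein that binds the beta 1 subunit, fell by 1.64 ± 0.19 (adjusted p = 6.12e-07).

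Of 11 assembly factors and partners of the proton pump, all tested, 7 were called higher and 3 lower from cortex to IM (after scaling 2 and 7), so that the share called higher on the TPM scale was near that of all tested genes. Rnasek, a small partner of the membrane sector and the most abundant of the list, fell from 576 ± 31.5 to 383 ± 18.7 TPM, by 0.58 ± 0.06 (limma, adjusted p = 1.42e-07), and Ncoa7 and Dmxl2 were the other genes called lower. Oxr1, which in yeast acts on the assembled pump, rose by 1.72 ± 0.07 (adjusted p = 2.05e-12). Tcirg1, the a3 isoform of osteoclasts, which the symbol rule does not find, was at 22.0 TPM (cortex), 22.9 (OM) and 38.7 (IM).

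Other ATP-driven pumps and the ATP synthase were followed as well. Of 15 tested genes of mitochondrial ATP synthase limma called 0 in either direction from cortex to OM, also at an unadjusted p under 0.05. After scaling it called 5 lower and 0 higher, and limma-voom on the recovered reads called 1 lower. Of all tested genes 28.3% were called higher and 6.3% lower from cortex to OM (after scaling 16.2% and 17.8%). From cortex to IM 12 of the 15 were called lower and 0 higher (after scaling 15 and 0). Atp5b, its catalytic beta subunit, fell from 3354 to 2452 TPM, by 0.46 ± 0.06 (limma, adjusted p = 5.87e-06). Of 11 calcium and copper pumps 10 were tested, and 8 were called higher and 2 lower from cortex to IM (after scaling 4 and 3), shares near those of all tested genes. Atp2a3, a calcium pump of the endoplasmic reticulum, rose from 6.96 to 64.3 TPM, by 3.03 ± 0.10 (adjusted p = 2.03e-13), while Atp2a2, the most abundant of the list, rose by 0.45 ± 0.12 on the TPM scale (adjusted p = 0.00207) but was at -0.25 ± 0.12 after scaling (adjusted p = 0.0623).

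Genes whose scaled log2 levels followed Atp6v1b1 most closely over the 15 libraries were picked by Pearson r, as a description without a test, since libraries of 1 zone share its cell makeup. Among the 5 closest were Stxbp2 (r = 0.994), Oxgr1 (0.993), Pdzk1ip1 (0.99) and Pdk2 (0.989). In TPM these did not all fall. Stxbp2, a protein of vesicle fusion, had means of 87.6 TPM (cortex), 80.5 (OM) and 84.9 (IM). Pdzk1ip1 had means of 1126, 764 and 543 TPM and Pdk2 of 252, 196 and 156, and Oxgr1, the oxoglutarate receptor of intercalated cells, went from 17.9 TPM in cortex to 8.45 and 2.88.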

How the data were processed

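Total RNA of 15 microdissected mouse kidney samples was sequenced as paired-end libraries (per the labels' protocols). TPM for 25030 gene rows stand in the table that the authors deposited. Per the submitters' processing notes, STAR was used, with no version, and the build was mm9. Which counting tool, annotation and strand setting were used is not given in the sources used here. All 92 spike-in rows were at 0, so there is no absolute scale. Because the table holds TPM and not counts, the design's branch for normalized values was used: genes reaching 1 TPM in 5 or more libraries (15052), log2(TPM + 1), and limma 3.58.1 in R 4.3.3 with trend and robust moderation on all 15 libraries with zone as the factor, two-sided, with Benjamini-Hochberg adjustment and calls at an adjusted p under 0.05. Whole reads were recovered for 19997 of 19997 genes detected in 2 or more libraries (100%, tolerance 0.001 reads), and 762 genes above 0 in 1 library were left out. On these reads limma-voom called 4569, 11226 and 11829 genes from cortex to OM, from OM to IM and from cortex to IM, where the TPM fit called 5216, 12591 and 12972. Isoform ratios used log2 of values plus 0.1 TPM and exact permutation in Python 3.11.15 (scipy 1.17.1). The limma fit on TPM and the recovery of reads were tested on simulated data, and the permutation test on a constructed pair of groups. The other scalings and limma-voom were not tested in this way. Results for 3 of the genes that the symbol rule finds, and 2 ratios and 1 correlated gene, are not reported here; all stayed in the fits and in the adjustment of p-values.

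Members, gene lists (4 of pathways and 14 of cell type markers), named genes and libraries to leave out were chosen with earlier results of these data known. Full values per library were planned for 13 landmark members and for called members with a log2 difference of at least 1 and, in the higher zone, a mean of 5 TPM or more, which added 7; other members are given by mean, range or reads. List genes named are up to 3 of the most abundant and those that moved against the majority, and Sgk1, Nkain1, Oxr1, Tcirg1, Atp2a3, Slc26a4, Slc4a1, Slc4a9, Aqp6, Dmrt2, Foxi1, Rhcg, Rhbg, Hmx2, Insrr, Scnn1b and Scnn1g were added after their values were seen. Alternatives were the pseudocount, the filter, 3 other scalings or fits, separate fits per zone pair, the replicate number as a block, and leaving libraries out. Overlapping genes were read from GENCODE M21 by name, and promoters from RefSeq on GRCm38.p6; no coordinates were converted to or from mm9.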

Additional observations from a re-analysis of the deposited data

Results flagged for a closer look

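Among the 84 sets of 5 libraries examined (20 named members, counting each zone, and 8 ratios), the following 7 held a library whose gap to its nearest neighbour exceeded 0.71 of the whole range, which chance alone gives for about 1 in 20. In OM 1, Atp6v1b2 was low, at 207 TPM (others 257 to 268). Fxyd3 at 10.4 TPM (others 1.61 to 3.56) and Fxyd4 at 361 TPM (others 181 to 186) were high there. The ratio of Fxyd4 to Fxyd2 in OM 1 was 0.0799 (others 0.0375 to 0.0423). Atp1b2 was high in cortex 1, at 8.63 TPM (others 6.82 to 7.11). Fxyd1 was high in cortex 2, at 13.7 TPM (others 9.37 to 10.5). Atp6v0a1 was high in IM 4, at 72.2 TPM (others 52.0 to 57.6).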

How the results depend on the processing

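Counts of members called changed with scaling, and the count lower from cortex to OM changed most without cortex 4 or without cortex 5, to 10. Median-ratio scaling and limma-voom on recovered reads each gave 6 higher members from cortex to OM, 10 from OM to IM and 10 from cortex to IM. For members lower from OM to IM, median-ratio scaling gave 24, quantile normalization 15 and limma-voom 23. These scalings centre the typical gene near 0 by construction. They turned the sign of some members. From cortex to IM, median-ratio scaling and limma-voom gave -0.19 and -0.17 for Atp1b1, -0.28 and -0.27 for Atp6ap1 and -0.27 and -0.25 for Atp6ap2. From OM to IM they gave -0.33 and -0.33 for Atp1b1, -0.12 and -0.13 for Atp6ap1 and -0.46 and -0.50 for Atp6v1c2, for which quantile normalization gave -0.51. From cortex to OM median-ratio scaling gave -0.16 for Atp6ap1. Quantile normalization alone turned Fxyd2 higher, by 0.30 from cortex to OM and 0.37 from cortex to IM, and the cause was not tested.

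Leaving out single libraries gave 9 to 11 higher and 10 to 16 lower members from cortex to OM, 16 to 17 and 8 to 11 from OM to IM, and 16 to 16 and 17 to 18 from cortex to IM. All genes called ranged over 4452 to 5522, 11934 to 12572 and 12416 to 13036. Ratio calls that such omissions changed, as log2 differences, were Atp6v1b1 to Atp6v1b2 from cortex to OM (-0.33 to -0.21) and from OM to IM (0.29 to 0.51), Atp6v1c2 to Atp6v1c1 from cortex to IM (-0.62 to -0.42), Atp6v0e2 to Atp6v0e from cortex to OM (0.11 to 0.16), and Atp1b3 to Atp1b1 from cortex to OM (0.23 to 0.34). With 4 against 5 libraries the smallest exact p is larger by construction. Atp1b3 to Atp1b1 from cortex to OM lost its call without OM 1 (0.23, exact permutation, adjusted p = 0.0595), as without several other single libraries. Without cortex 1, OM 1 and IM 4, Atp1b3 to Atp1b1 from cortex to OM was 0.26 and no longer called. Over all alternatives to the 57 differences of the 19 named and tested members, 1256 values kept their side of the threshold. Those called in both fits also kept their direction, while sign changes among values called in neither fit were not counted apart. With the same sign, 15 gained a call and 24 lost one, and 16 changed sign with a call in either fit.

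Same-numbered libraries of different zones deviated together with correlations of -0.0268 to 0.262 over 15 pairs, and 10 of the 15 correlated best with their own number, a hint from the data and not from the labels. As only 8 of the 15 correlations were over 0.1, the main fits did not use the numbers to pair samples. Whether same-numbered libraries share a mouse is not given in the labels and is not settled by these correlations. For the ratios, 5 pairs cannot give a paired exact p below 0.0625. With the replicate number as a block, members called were 10 higher and 14 lower, 16 and 10, and 16 and 17 in the 3 comparisons. All genes called came to 5524, 12736 and 13114. TPM carries no absolute scale, so a fall of every gene in a zone could not be seen. Of the 6 members that did not pass the filter, which rested on few reads, the fit without a filter called 1, Atp12a, lower from cortex to IM (-0.21, adjusted p = 0.0261).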
